A study of Mus musculus with 14 samples.

Results

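C-type lectins and collectins are carbohydrate-binding and lectin-like proteins, here the mouse genes whose symbols begin with Clec, Colec or Cd209. The rule matched 43 symbols. It left out 2 pseudogenes and, by name, the 5 genes Clec4f, Clec1b, Clec9a, Clec4g and Cd209a, so that 36 members remained of 48794 genes in the tables. Of these members, 20 lie on chromosome 6, 8 on chromosome 8 and 8 elsewhere. Clec7a was kept although GENCODE M21 types it as a polymorphic pseudogene, because RefSeq lists it as protein coding. Without it the counts below change by 1, to 27 members tested, 16 higher and 8 lower.

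C-type lectins on myeloid cells bind sugars and lipids of microbes and dying cells. Some signal through Syk by way of a tyrosine motif or the adaptors Fcer1g and Tyrobp, and others carry an inhibitory motif that recruits phosphatases such as Ptpn6. The Clr proteins, encoded by the Clec2 genes, are ligands of Nkrp1 receptors on natural killer cells. Collectins join a collagen stalk to a lectin head, and the soluble ones can start the lectin pathway of complement, whose other components the liver secretes.

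CD45+ leukocytes were isolated by flow sorting from liver needle biopsies of mice labelled WT and untreated, and bulk liver tissue with the same genotype and treatment labels served as the control. Sorted samples held 2500, 5000, 10000 or 20000 cells, with 3 libraries each, and bulk liver had 2 libraries. All 14 libraries were made from total RNA with a low-input whole-transcript cDNA method (SMART-seq v4), which amplifies the cDNA before tagmentation. No label ties a library to its own animal. The p-values therefore cover the variation among these libraries alone, which may be technical.

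Total counts ran from 6723357 to 14496314 per library, and the bulk libraries held 7605290 and 8034138. Levels are given as CPM (counts scaled to library size with TMM factors) unless TPM (which also accounts for transcript length) is named. The sort was checked on marker lists: 5 general leukocyte genes summed to 136 to 157 CPM in bulk liver and to 8012 to 8753 CPM in sorted cells. Hepatocyte markers (7 genes) summed to 112120 to 114761 CPM in bulk and 117 to 198 CPM in sorted cells. Kupffer cell markers, unlike those of monocytes, neutrophils, B cells and T and NK cells, were lower after sorting, with all 9 genes called and sums of 1258 to 1489 against 561 to 953 CPM. The direction depends on the scale: in TPM all 9 had a higher mean in sorted cells, and for 7 of them every sorted library was above both bulk libraries.

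Promoters of 4 members on chromosome 6 are shown because these genes carry the main contrasts below: Clec4e and Clec7a are activating receptors found in sorted cells, while Clec2i and Clec2d are related ligands that differed in opposite directions. Each run is the 250 bases before the gene's start in RefSeq on GRCm38.p6, read 5′ to 3′ on the gene's strand. Capitals mark matches to GAGGAA (a core bound by PU.1-type ETS factors) or TTGCNNAA (a C/EBP-type motif), searched on both strands. Clec4e lies at chr6:123289872-123290121 (minus strand), Clec7a at chr6:129472780-129473029 (minus strand), Clec2i at chr6:128887337-128887586 (plus strand) and Clec2d at chr6:129180365-129180614 (plus strand).
Clec4e: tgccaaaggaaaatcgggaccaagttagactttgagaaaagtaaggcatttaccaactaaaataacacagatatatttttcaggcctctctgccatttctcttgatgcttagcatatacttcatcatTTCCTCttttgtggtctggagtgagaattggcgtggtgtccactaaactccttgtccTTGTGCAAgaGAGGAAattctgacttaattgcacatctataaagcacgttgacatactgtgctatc
Clec7a: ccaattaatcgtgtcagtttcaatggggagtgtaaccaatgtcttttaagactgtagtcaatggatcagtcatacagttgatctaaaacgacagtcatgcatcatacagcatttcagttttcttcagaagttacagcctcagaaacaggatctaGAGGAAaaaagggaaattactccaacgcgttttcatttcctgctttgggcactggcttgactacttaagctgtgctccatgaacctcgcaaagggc
Clec2i: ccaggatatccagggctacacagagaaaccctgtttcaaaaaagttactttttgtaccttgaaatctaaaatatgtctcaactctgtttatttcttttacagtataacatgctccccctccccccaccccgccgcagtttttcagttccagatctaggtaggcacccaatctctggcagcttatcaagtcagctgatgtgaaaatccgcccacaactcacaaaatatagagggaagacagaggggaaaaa
Clec2d: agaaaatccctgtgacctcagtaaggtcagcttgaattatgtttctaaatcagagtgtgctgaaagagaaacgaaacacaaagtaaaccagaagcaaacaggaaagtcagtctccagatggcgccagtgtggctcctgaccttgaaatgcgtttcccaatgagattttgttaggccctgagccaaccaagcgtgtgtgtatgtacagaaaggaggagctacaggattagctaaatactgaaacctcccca
The Clec4e window holds 3 matches. GAGGAA begins 123 bases before the start on the minus strand of the window and 56 bases before it on the plus strand, and TTGCNNAA begins 66 bases before it. Clec7a has 1 GAGGAA match, 96 bases before the start, and neither motif was found in the Clec2i and Clec2d windows.

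Of the 36 members, 28 had a promoter in the RefSeq table. GAGGAA was found in 14 of these 28, and in 23.1% of all 27025 promoters of that length. Among members called higher in sorted cells it was in 8 of 14 (Cd209d, Clec12a, Clec4a1, Clec4b1, Clec4d, Clec4e, Clec5a and Clec7a), and among those called lower in 2 of 6 (Clec11a and Clec14a). TTGCNNAA was in 5 of 28 members and 9.55% of all promoters, in 2 of 14 higher members (Clec12a and Clec4e) and 1 of 6 lower ones (Clec11a). Letters of this kind are a description of the sequence and were not tested as sites.

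Sorted leukocytes and bulk liver carried different sets of lectins. In sorted cells receptors of myeloid cells rose, among them Clec4a3, Clec7a and Clec12a, as did the Clr ligand Clec2i, whereas the collectins Colec10, Colec11 and Colec12 and the endothelial lectin Clec14a fell. With edgeR's quasi-likelihood test, 28 members had enough counts to be tested and 25 passed an adjusted p of 0.05, 17 of them higher and 8 lower in sorted cells. Of all 16294 genes tested 80.3% passed, 41.8% higher and 38.5% lower, so passing is common in this comparison. Among the higher members, 7 had no bulk count and passed the count filter through sorted cells alone, so they could only be called higher. Clec2h passed the filter through bulk liver alone and could only be called lower. The median log2 difference was 2.75 over the members tested, or 1.70 with the 7 members that had no bulk count placed at their lower bound, and 0.17 over all genes tested. None of the 25 called members had its mean TPM in the opposite order (0 turned). The 3 members that did not pass were Cd209b, Clec1a and Clec16a. For 17 tested members each of the 12 sorted values exceeded the 2 bulk values, and for 8 each was under them, against 40.6% and 37.7% of all genes tested. In bulk tissue, fewer cells of a type and less RNA per cell cannot be told apart.

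**Figure D1:**
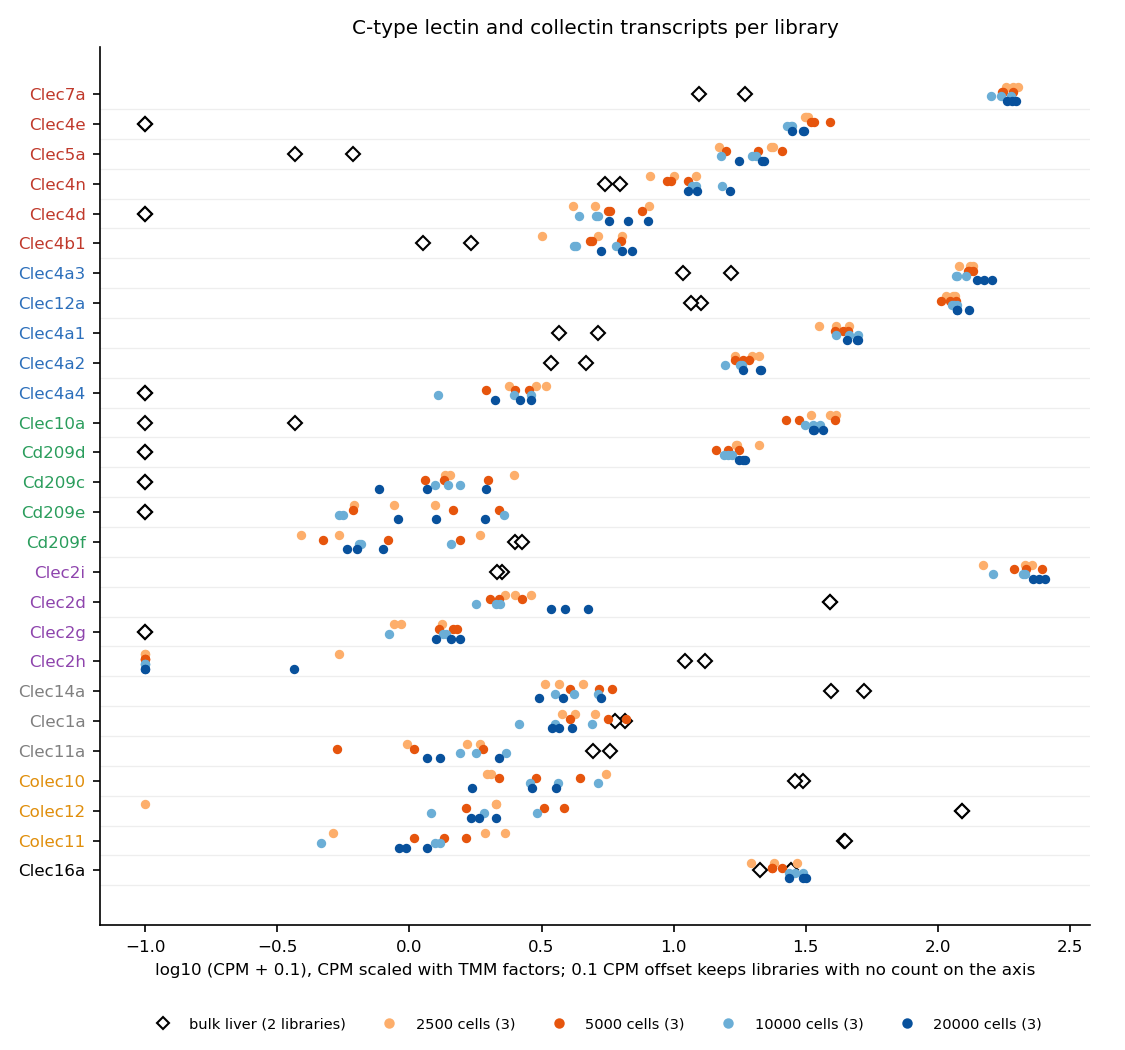
Level of each of the 27 named members in each library, as log10 of CPM plus 0.1 (open diamonds for the 2 bulk libraries, dots coloured by input for the 12 sorted ones, gene names coloured by role as in the plot of log2 differences). The activating and inhibitory receptors have every dot to the right of the diamonds, and the 3 collectins have every dot to the left.

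**Figure D2:**
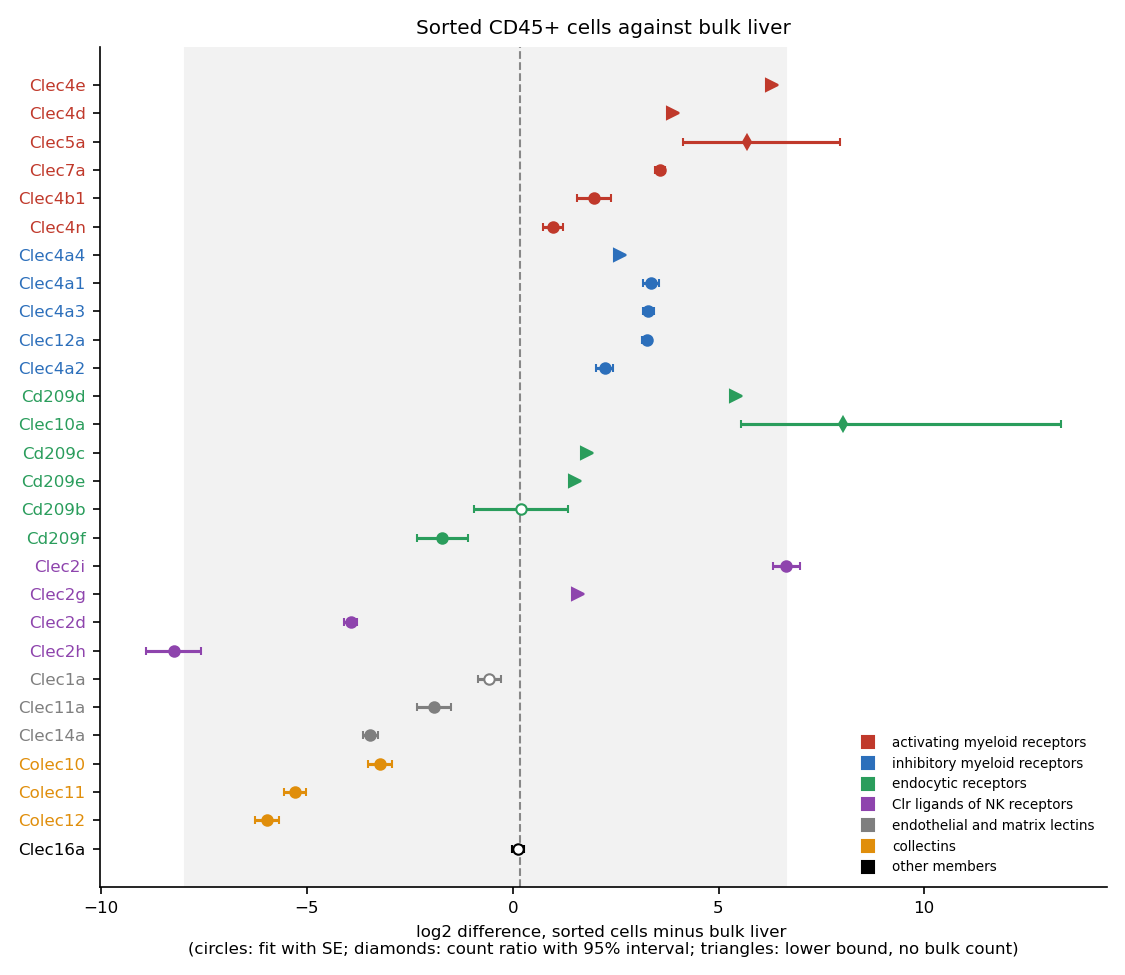
Log2 difference of sorted cells minus bulk liver for the 28 members tested, coloured by role (circles with SE from edgeR, diamonds for count ratios with a 95% counting interval, triangles for lower bounds against no bulk count). Open circles did not pass, the dashed line is the median of all genes at 0.17, and the shaded band runs from the 5% point to the 95% point of all genes, -7.96 to 6.65. Clec2i and Clec2h, both Clr ligands, lie near opposite ends.

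The 7 activating myeloid receptors include the fungal and bacterial sensors of the family. Of them 6 were tested and 6 rose, as did 41.8% of all genes tested. Clec4e and Clec4d had no bulk count and could only be called higher. Clec7a (Dectin-1, the receptor for beta-glucan) was at 12.3 and 18.5 CPM in the bulk libraries and at 159, 185 and 201 CPM (lowest, median and highest) in sorted cells. All 12 sorted libraries were above both bulk libraries, and the log2 difference was 3.57 (SE 0.13, edgeR adjusted p = 1.03e-15). Clec4e (Mincle, a receptor for mycobacterial glycolipid) had no bulk count, against 26.7, 31.2 and 39.0 CPM and 3998 counts in all in sorted cells. Set against 3 counts in the bulk libraries combined, which is 0.393 CPM, Clec4e was at least 79.2-fold higher. Its neighbour Clec4d (MCL, which pairs with Mincle) also had no bulk count and lay at 4.06, 5.57 and 7.96 CPM after sorting, which is at least 14.8-fold higher.

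Clec5a (MDL-1, which signals through Tyrobp) had 3 counts in bulk, at 0.268 and 0.513 CPM, and 14.8, 20.6 and 25.6 CPM in sorted cells. The ratio was 51.3, with a 95% counting interval from 17.5 to 249. Its fitted log2 difference was 5.62, and 6.22 without bulk replicate 2. Clec4n (Dectin-2, a mannan receptor that uses Fcer1g) stood apart from these large differences. It was at 6.16 and 5.38 CPM in bulk and 8.02, 11.4 and 16.3 CPM in sorted cells, a log2 difference of 0.99 (SE 0.24, edgeR adjusted p = 0.00101). In TPM the gap of Clec4n was wider, with 2.37 and 2.25 in bulk and 9.73, 15.0 and 20.7 in sorted cells. That of Clec7a was wider too, with 3.01 and 4.98 TPM in bulk and 131, 149 and 161 TPM in sorted cells. Clec4b1, a close relative of the Dectin-2 group, rose by 1.98 (SE 0.42, edgeR adjusted p = 2.44e-04), from 1.61 and 1.03 CPM to 3.08, 5.14 and 6.84 CPM. For Clec4n and Clec4b1 every sorted library was above both bulk libraries, by a smaller margin than for Clec7a. Clec4b2 had 33 counts in sorted cells and none in bulk and was not tested.

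The group listed as inhibitory, which takes in relatives of DCIR, held the member with the highest median TPM in sorted cells. Whether each of its members carries an inhibitory motif was not examined. Of 6 members 5 were tested and 5 rose, with a median log2 difference of 3.30. Among all genes tested 41.8% rose, and Clec4a4, with no bulk count, could only be called higher. Clec4a3, a relative of the inhibitory receptor DCIR, was at 16.3 and 10.8 CPM in bulk and at 117, 132 and 160 CPM in sorted cells (log2 difference 3.30, SE 0.13, edgeR adjusted p = 3.70e-15). Clec12a (MICL, an inhibitory receptor that recognises uric acid crystals) was at 12.6 and 11.5 CPM in bulk and at 102, 116 and 130 CPM in sorted cells. Its log2 difference was 3.25 (SE 0.11, edgeR adjusted p = 8.33e-16), and its coefficient of variation over the 12 sorted libraries was 5.94%.

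Other DCIR relatives were lower in level. Clec4a1 rose from 5.09 and 3.59 CPM to 35.4, 45.6 and 49.7 CPM (log2 3.35, SE 0.19). Clec4a2 (DCIR1) rose from 4.55 and 3.33 CPM to 15.5, 18.2 and 21.2 CPM (log2 2.24, SE 0.21). Clec4a4 (DCIR2, known from a subset of dendritic cells) had no bulk count and 1.18, 2.46 and 3.19 CPM after sorting, a level at least 6.10-fold higher. In each of these genes no sorted library overlapped bulk. Clec12b, also inhibitory, had 5 counts in sorted cells and none in bulk. The Clec4a and Clec4b genes are related in sequence, and whether reads were shared between them was not measured, so the level of each gene alone is uncertain.

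Endocytic receptors were split. Of 7 members 6 were tested, 4 rose, Cd209f fell and Cd209b did not pass. Among all genes tested 41.8% rose and 38.5% fell. Cd209c, Cd209d and Cd209e had no bulk count and could only be called higher. Clec10a (Mgl1, a galactose-type lectin of macrophages and dendritic cells) had 1 count in bulk and lay at 26.5, 33.6 and 40.9 CPM in sorted cells, a ratio of 261 with a 95% counting interval from 46.8 to 10296. The ratio rests on that single count in bulk replicate 1: without this library bulk had no count, and without bulk replicate 2 the fitted log2 difference was 7.00, against 7.90 with both. Cd209d (SIGNR3, a relative of DC-SIGN) had no bulk count and 14.4, 17.2 and 20.9 CPM after sorting, a level at least 43.3-fold higher. Both genes had counts in every sorted library.

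The remaining Cd209 genes were near the limit of detection. Cd209c was at 0.668, 1.28 and 2.38 CPM in sorted cells with no bulk count, at least 3.51-fold higher. Cd209e was at 0.443, 0.973 and 2.18 CPM, at least 2.83-fold higher (edgeR adjusted p = 0.0119). The edgeR adjusted p was 0.0594 without bulk replicate 1 and 0.0633 without bulk replicate 2. Cd209f was at 2.41 and 2.56 CPM in bulk and 0.290, 0.550 and 1.76 CPM in sorted cells, a log2 difference of -1.72 (SE 0.62, edgeR adjusted p = 0.0161). That call was lost without bulk replicate 1 (0.0910) or 2 (0.119), with library totals in place of TMM (log2 -0.52, adjusted p = 0.426), with 2500 (0.0562), 5000 (0.0576) or 10000 cells alone (0.0544), and on TPM, where bulk was at 1.42 and 1.42 and sorted cells ran from 0.640 to 2.86. Cd209b (SIGNR1, a receptor of marginal zone macrophages) had 5 counts in bulk and 115 in sorted cells and did not pass, with overlapping groups. Cd209g had 1 count in bulk and 11 in sorted cells.

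The Clr ligands, which lie within 1 stretch of chromosome 6, moved in opposite directions. Of 5 members 4 were tested, Clec2i and Clec2g rose, and Clec2d and Clec2h fell, with a median log2 difference of 1.28 that becomes -1.18 when Clec2g is placed at its bound. Clec2i (Clr-g, a ligand of the receptor Klrb1f) was at 2.14 and 2.05 CPM in bulk and at 148, 214 and 254 CPM in sorted cells. Its log2 difference was 6.65 (SE 0.32, edgeR adjusted p = 2.40e-11). Clec2d (Clr-b, a ligand of the inhibitory receptor Klrb1b) was at 39.1 and 39.0 CPM in bulk and 1.69, 2.31 and 4.64 CPM in sorted cells (log2 difference -3.94, SE 0.16, edgeR adjusted p = 1.31e-14). All sorted libraries were above bulk for Clec2i and below it for Clec2d. Whether reads were shared between the Clec2 genes was not measured.

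Clec2h (Clr-f, known from gut epithelium) was at 11.0 and 13.1 CPM in bulk, and only 7 counts were found over the 12 sorted libraries, 10 of which had none. Its log2 difference was -8.24 (SE 0.67, edgeR adjusted p = 1.44e-08), while the DESeq2 Wald test gave an adjusted p of 0.0592. It was -9.16 without the second library of 2500 cells and -8.92 without the first of 20000 cells, the only sorted libraries with a count. Clec2g, with no bulk count, was at 0.740, 1.24 and 1.45 CPM after sorting, which is at least 2.99-fold higher. Clec2e had 9 counts in sorted cells and none in bulk. Clec2i (chr6:128887588-128898167, plus strand, GRCm38) overlaps BC035044 on the opposite strand, which was at 0.657 and 0.747 CPM of library totals in bulk and at 41.0 to 50.8 in sorted cells. Whether strand was used in counting is not stated, so reads from the overlap cannot be told apart.

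Nkrp1 receptors, among them partners of Clr ligands, were read from a list of 4. Of these 4 of 4 were called higher, against 41.8% of all genes tested. Klrb1a and Klrb1b had no bulk count and could only be called higher. Klrb1c (NK1.1) had 1 count in bulk and was at 132, 151 and 171 CPM in sorted cells. Klrb1f, the partner of Clec2i, rose from 0.803 and 0.513 CPM to 26.5, 33.1 and 37.5 CPM (log2 difference 5.59, SE 0.31). Klrb1b, the partner of Clec2d, had no bulk count and 10.1, 12.5 and 16.3 CPM after sorting, which is at least 33.6-fold higher. Clec2i and its receptor were thus both higher in sorted cells, whereas Clec2d was lower and its receptor higher.

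**Figure D3:**
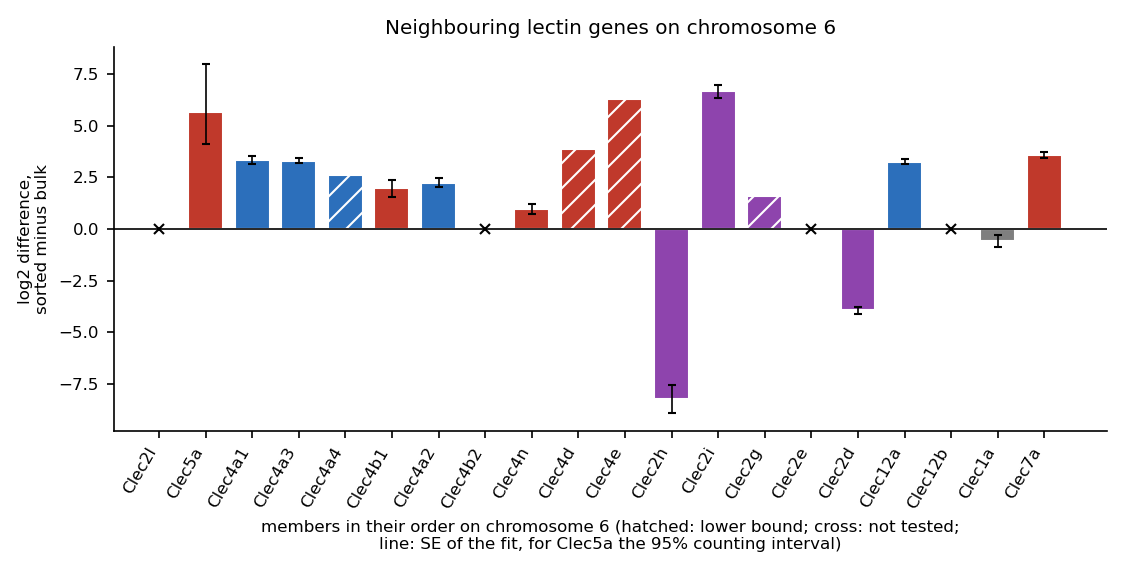
Log2 difference of sorted cells minus bulk liver for the 20 members on chromosome 6 in gene order, in bars coloured by role as in the plot of log2 differences (hatched bars are lower bounds, crosses were not tested). The tested Clec4 genes all lie above 0, while among the Clr genes Clec2i and Clec2g lie above 0 and Clec2h and Clec2d below it.

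On chromosome 6, 16 members were tested, 13 rose and 2, Clec2h and Clec2d, fell. Neighbours in the Clec4 group (Clec4a1, Clec4a3, Clec4a4, Clec4b1, Clec4a2, Clec4n, Clec4d and Clec4e) were all called higher, as were 41.8% of all genes tested. Clec4a4, Clec4d and Clec4e had no bulk count and could only be called higher. Clec1a, in a separate group with Clec12a, Clec12b (not tested) and Clec7a, did not pass.

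Endothelial and matrix lectins were lower in sorted cells or did not pass. Clec14a, an adhesion receptor of endothelium, was at 52.5 and 39.2 CPM in bulk and at 2.99, 4.01 and 5.72 CPM in sorted cells (log2 difference -3.46, SE 0.18, edgeR adjusted p = 5.08e-13). Sinusoidal endothelial markers summed to 483 to 495 CPM in bulk and to 153 to 204 CPM in sorted cells, with 6 of 7 called lower and Fcgr2b higher. Without Fcgr2b the sums were 401 to 414 CPM in bulk and 38.0 to 89.0 CPM in sorted cells; none of the 7 was at 0 in all sorted libraries, and their part in the difference was not tested. Clec11a, a secreted growth factor of bone marrow stroma, fell by 1.91 (SE 0.42, edgeR adjusted p = 3.28e-04), from 5.62 and 4.87 CPM to 0.431, 1.50 and 2.22 CPM. With library totals its difference was -0.71 (adjusted p = 0.118), and on TPM it did not pass either (adjusted p = 0.530).

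Clec1a, a receptor of endothelium and dendritic cells, was at 6.43 and 5.90 CPM in bulk and 2.5, 3.98 and 6.48 CPM in sorted cells. The difference of -0.57 (SE 0.28, edgeR adjusted p = 0.0719) did not pass, its groups overlapped, and its sign turned with library totals (0.63, adjusted p = 0.0471). It passed as lower with DESeq2 size factors (-0.69, adjusted p = 0.0336) and without the third library of 10000 cells (-0.64, adjusted p = 0.0385). Against bulk it also passed as lower with 10000 cells alone (-0.77, edgeR adjusted p = 0.0408) and 20000 cells alone (-0.76, edgeR adjusted p = 0.0480). Clec3b (tetranectin, a plasma protein) had 16 counts in sorted cells and none in bulk, and Clec3a had no count in any library.

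All 3 collectins fell, as did 38.5% of all genes tested. Colec12 (CL-P1, a scavenger receptor of endothelium and stroma) was the most abundant member in bulk at 123 CPM in each library, against 0, 1.92 and 3.76 CPM in sorted cells. Its log2 difference was -5.98 (SE 0.30, edgeR adjusted p = 5.46e-11), and the third library of 2500 cells had no count. Colec11 (CL-K1, a soluble collectin of liver and kidney) was at 44.2 and 44.3 CPM in bulk and at 0.364, 1.11 and 2.20 CPM in sorted cells, a log2 difference of -5.29 (SE 0.27, edgeR adjusted p = 3.82e-13). Colec10 (CL-L1, which joins Colec11 in circulating complexes) was at 30.8 and 28.7 CPM in bulk and at 1.62, 2.85 and 5.46 CPM in sorted cells, a log2 difference of -3.23 (SE 0.29, edgeR adjusted p = 7.21e-09). In TPM the gap was narrower for all 3 collectins. Colec10 was at 2.70 and 2.65 TPM in bulk and 0.46, 0.855 and 1.68 TPM in sorted cells. The scale moved genes in general: the median difference of all genes was 1.19 on log2(TPM + 1), against 0.17 in the main test. In all 3 collectins the 12 sorted libraries lay below both bulk libraries.

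Beside the collectins, stellate cell and fibroblast markers (8 genes) summed to 426 to 471 CPM in bulk and 13.9 to 20.3 CPM in sorted cells, with 7 called lower. Hepatocyte markers were all called lower, and none of either list was at 0 in every sorted library; the part of these cells in the collectin difference was not tested. Of 10 other genes of the lectin pathway and soluble lectins, 7 were tested and 7 were lower, with a median log2 difference of -7.07. Among all genes tested 38.5% were lower. Fcna, a ficolin, was lower in TMM-scaled CPM (log2 -1.19) but not in TPM, with 33.8 and 38.2 TPM in bulk and 34.3, 53.2 and 71.8 TPM in sorted cells. Mbl2, a mannose-binding lectin, went from 716 and 689 CPM to 0, 0.465 and 1.35 CPM. C4b, a complement component cleaved by the proteases of this pathway, was at a mean of 1696 CPM in bulk and at 7.33, 14.2 and 28.9 CPM in sorted cells.

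Clec16a, a protein named for a lectin-like domain and known in autophagy, was at 21.2 and 27.7 CPM in bulk and at 19.6, 27.2 and 31.6 CPM in sorted cells (log2 difference 0.12, SE 0.15, edgeR adjusted p = 0.457). The groups overlapped in CPM but not in TPM, where bulk was at 7.93 and 7.44 and sorted cells ran from 20.2 to 35.3, and it was called higher with library totals (1.33) and on TPM (1.77). Under library totals the all-gene median was 1.37 instead of 0.17, and 10738 genes were called higher and 3654 lower instead of 6806 and 6273. Relative to that median, Clec16a was close to the typical gene with TMM factors and with library totals. On log2(TPM + 1) it was above the all-gene median, at 1.77 against 1.19. Clec2l had 21 counts in sorted cells only, and Clec18a had none in any library.

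Of the signalling partners of the receptors reported here, 13 rose and Ptpn11, a phosphatase, fell (log2 difference -0.76, SE 0.10, edgeR adjusted p = 1.52e-06). Among all genes tested 41.8% rose and 38.5% fell. In TPM Ptpn11 went the other way, from 4.68 and 4.73 in bulk to 7.31, 8.74 and 11.7 in sorted cells. Syk, the kinase downstream of the activating receptors, went from 5.89 and 6.92 CPM to 399, 463 and 570 CPM. Fcer1g, the adaptor of Clec4n and Clec4e, went from 35.4 and 33.8 CPM to 356, 389 and 497 CPM. The 2 partners with the highest mean level were Ptpn6, a phosphatase recruited by inhibitory receptors (49.3 and 56.1 CPM in bulk, log2 difference 4.35, SE 0.08), and the kinase Prkcd (34.0 and 35.4 CPM in bulk, log2 difference 3.92, SE 0.10). Lectin receptors under other symbols were mixed: of 11 tested 4 rose, 5 fell and 2 did not pass. Among the 5, Mrc1, the mannose receptor, turned in TPM, from 4.96 and 5.09 in bulk to 5.46, 7.03 and 10.1 in sorted cells. The low-affinity IgE receptor Fcer2a, a C-type lectin of B cells, rose from 2.14 and 2.31 CPM to 535, 576 and 618 CPM, and Cd302, a lectin-like receptor, fell from 878 and 893 CPM to 25.3, 33.1 and 40.4 CPM.

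Compared per length, in TPM, the make-up of the family differed between tissue and sorted cells. The 36 members summed to 89.0 and 85.5 TPM in bulk and to 744, 808 and 874 TPM (lowest, median and highest) in sorted cells. In bulk Colec12, Clec2d and Colec11 together gave 51.4% and 53.6% of that sum, and in sorted cells they gave 0.404% to 0.771%. In all 12 sorted libraries the 4 highest members were Clec4a3, Clec7a, Clec2i and Clec12a, which gave 63.4% to 69.1% of the sum, against 15.3% and 15.1% in bulk.

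Clec4a3 had the highest TPM in 11 sorted libraries and Clec7a in 1. Their ranges were 147 to 188 TPM for Clec4a3 and 131 to 161 TPM for Clec7a, so these neighbours overlapped, as did Clec7a and Clec2i (85.3 to 147 TPM) and Clec2i and Clec12a (82.0 to 114 TPM). A gap followed, since Clec4a1 ran from 33.6 to 50.3 TPM and Clec10a from 30.3 to 52.5 TPM. By listed role, the inhibitory group gave 15.4% and 12.4% of the family's TPM in bulk and 40.2% to 44.5% in sorted cells. Within it, Clec4a3 and Clec4a1, whose motifs were not examined, gave medians of 19.8% and 5.28% of the family's TPM in sorted cells. The activating group gave 7.57% and 9.43% in bulk and 25.9% to 30.9% in sorted cells. Collectins gave 38.1% and 39.5% in bulk and 0.132% to 0.650% in sorted cells. The Clr ligands gave 19.4% and 21.4% in bulk and 11.3% to 18.3% in sorted cells, with Clec2d in bulk (14.5 and 14.7 TPM) and Clec2i in sorted cells (median 128 TPM) as the main source.

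**Figure D4:**
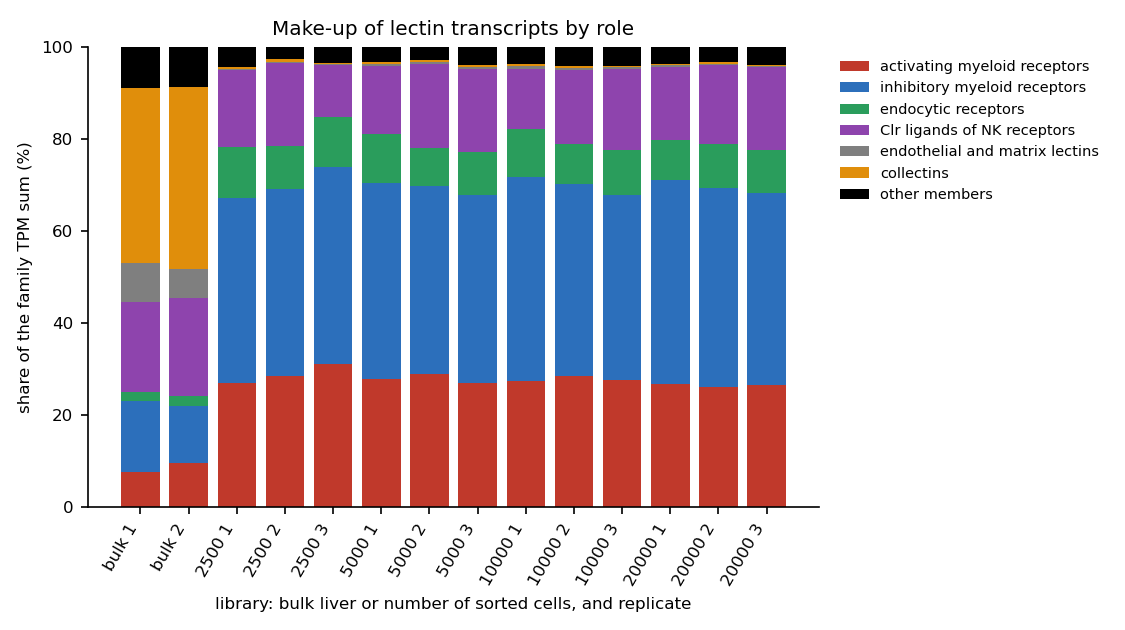
Share of the family's summed TPM (percent) by role in each of the 14 libraries. Collectins fill 38.1% and 39.5% of the bulk bars and at most 0.650% of the sorted ones, where the groups listed as inhibitory and activating take most.

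The second question of the design was whether the number of sorted cells altered the measurement. None of the 27 members tested across inputs passed, whether for a slope on the log2 cell number, any difference between the 4 inputs, or 2500 against 20000 cells (edgeR's quasi-likelihood test, threshold 0.05). At an unadjusted p under 0.05 there were 3, 3 and 4 members, and limma-voom also called 0, with 3, 4 and 5 at an unadjusted p under 0.05. DESeq2 called 0 as well, with 3 for the slope and 4 for the ends. The background over 14795 genes was 0.0811% called for the slope (0.0608% rising and 0.0203% falling with cell number), 0.297% for any difference and 0.419% for 2500 against 20000 cells (0.0811% higher and 0.338% lower at 2500). A missed threshold does not show that levels were equal.

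Clec7a was at 191 ± 10.5 CPM (SD, n = 3) at 2500 cells, 181 ± 9.18 at 5000, 174 ± 15.0 at 10000 and 190 ± 7.44 at 20000, with a log2 difference between the ends of 0.02 (SE 0.07). For Clec12a it was -0.11 (SE 0.07) and for Cd209d 0.03 (SE 0.14). The collectins spread more widely between sorted libraries: the coefficient of variation was 49.4% for Colec12, 47.0% for Colec11 and 40.2% for Colec10, against 6.40% for Clec7a and 9.45% for Clec4a3. Members at a like level spread less or more, such as Clec2g (1.17 CPM, 21.3%) and Cd209e (1.11 CPM, 57.7%). Changes of the collectins across inputs were thus measured with an SE of 0.44 to 0.67 between the ends.

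Clec4a3 had the smallest p among members between the ends. Its libraries were at 120, 132 and 136 CPM at 2500 cells and at 160, 149 and 141 CPM at 20000 cells, a log2 difference of -0.20 (SE 0.07, edgeR unadjusted p = 0.00991, adjusted p = 0.213). All 3 libraries of 20000 cells were above the other 9. The same order held for Clec2d, at 2.42, 2.20 and 2.79 CPM at 2500 cells and 3.34, 3.76 and 4.64 CPM at 20000 cells (log2 difference -0.66, SE 0.29, edgeR adjusted p = 0.335). The share of all genes with this order was not counted, so the order by itself does not set these members apart.

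Clec16a had the smallest p for the slope, at 0.12 per doubling of cells (SE 0.04, edgeR unadjusted p = 0.0114, adjusted p = 0.299). Clec4n followed at 0.15 (SE 0.06, edgeR adjusted p = 0.346), from 10.0 ± 2.04 CPM (SD, n = 3) at 2500 to 13.2 ± 2.69 at 20000 cells, and Clec4a1 at 0.08 (SE 0.03, edgeR adjusted p = 0.413). Clec4e ranged between inputs from 27.4 ± 0.665 CPM (SD, n = 3) at 10000 cells to 35.3 ± 3.20 at 5000 cells without passing (edgeR adjusted p = 0.321 for any difference). In Clec16a and Clec4n the libraries of 2500 and 20000 cells overlapped in level.

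Clec2i was followed after its values were seen, because it was the 1 member called when low-count genes were not filtered out. Its libraries were at 213, 226 and 148 CPM at 2500 cells and at 230, 241 and 254 CPM at 20000 cells. The difference between the ends was -0.29 (SE 0.15, edgeR adjusted p = 0.448), and without the filter it was -0.30 (edgeR adjusted p = 0.0110). Without the third library of 2500 cells, the lowest of the 12, it was -0.13.

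**Figure D5:**
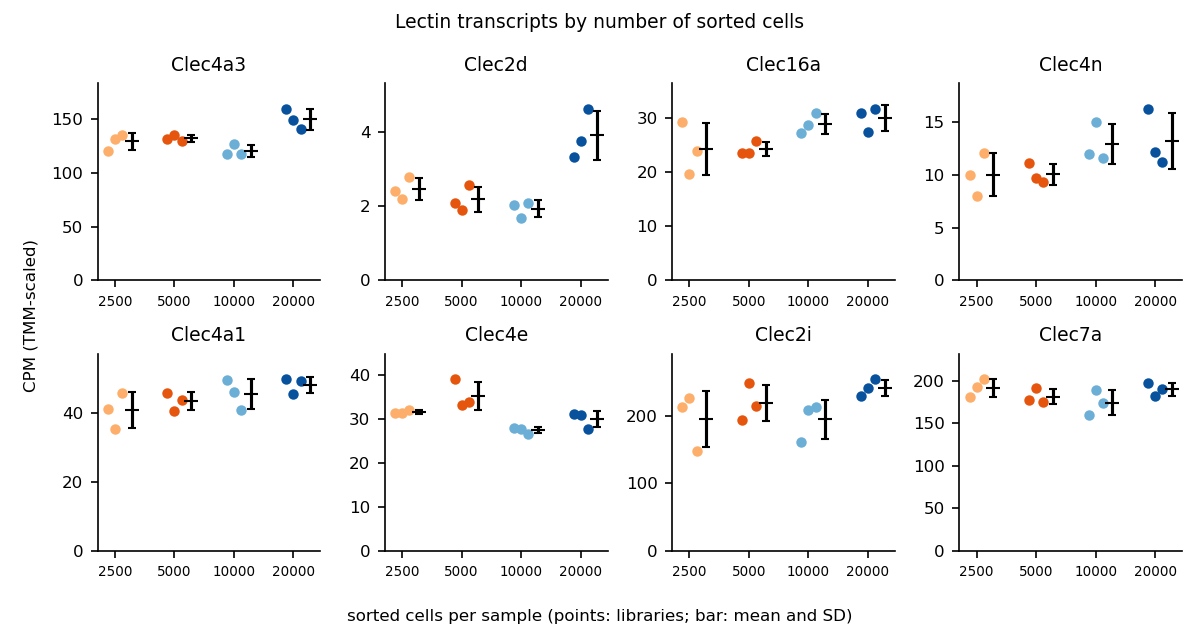
CPM of selected members in each of the 12 sorted libraries by number of sorted cells, with points for libraries and bars for the mean and SD of 3 libraries. Clec4a3 and Clec2d are highest in the 3 libraries of 20000 cells, and no member passed the adjusted threshold. The share of all genes with this order was not counted.

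Other measures differed between inputs. Kupffer cell markers summed to 750 to 913 CPM at 2500 cells, 615 to 664 at 5000, 707 to 953 at 10000 and 561 to 629 at 20000, in no order of cell number, with 2 of 9 genes called higher at 2500 than at 20000 (edgeR). Monocyte and macrophage markers summed to 10332 to 11547 CPM at 2500 cells and 11312 to 12308 at 20000, and 1 of 7, Ly6c2, was called lower at 2500 (log2 difference -0.31, edgeR adjusted p = 0.0334). Neutrophil markers summed to 922 to 1046 CPM at 10000 cells, where Clec4e was lowest, and to 1109 to 1610 CPM at the other inputs. Fcer1g was lower at 2500 than at 20000 cells (log2 difference -0.29, edgeR adjusted p = 0.0409), as was the lectin-like receptor Cd93 (-0.83, edgeR adjusted p = 0.0463). Their part in the values of Clec4a3, Clec2d, Clec2i and Clec4e was not tested.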

How the data were processed

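RNA was measured in 12 libraries of sorted CD45+ liver leukocytes and 2 of bulk liver. The submitters' processing notes name the build GRCm38 and the tools DESeq2 1.34.0, FastQC 0.11.5, featureCounts 1.5.1, STAR 2.5.2b and RSEM 1.3.0, with no roles, annotation release, filters or strand setting. The authors deposited raw counts per gene as whole numbers, and the tests rest on these counts. The authors deposited TPM values as well, used to compare levels between genes and in an alternative. Another deposited table, of variance-stabilised values, was not used. All columns were mapped to samples.

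Genes were tested with edgeR 4.0.16 in R 4.3.3 (quasi-likelihood F test, robust, TMM factors, filterByExpr by group), with Benjamini-Hochberg adjustment over all genes and a threshold of 0.05. The comparison with bulk liver used all 14 libraries and the average over the 4 sorted groups. The tests across inputs used the 12 sorted libraries. Where bulk had no count, the fold is a lower bound against 3 counts in the bulk libraries combined. Ratios on 1 to 3 bulk counts carry a 95% interval for counting error only. Printed CPM carry the TMM factors of the 14-library fit. Named members are those at or above a mean of 1 CPM in bulk or sorted cells (27 of 36), and lower ones are given by counts. Of each context list the 2 genes with the highest mean CPM are named; Syk, Fcer1g, Klrb1b, Cd93, Ptpn11, Fcna, Mrc1, Fcgr2b and Ly6c2 were named besides, after their values were seen. Across inputs the 3 members with the smallest p are named, and Clec7a, Clec12a, Cd209d, the collectins, Clec2g, Cd209e and Clec2i were added after their values were seen. A gene of the list of signalling partners is not reported here. The fitting steps were tested on simulated data.

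The members and lists were chosen with earlier results of these data known. Coordinates are from GENCODE M21 (GRCm38) and promoters from RefSeq (GRCm38.p6). Alternatives were library totals, DESeq2 size factors, no filter, limma-voom 3.58.1, the DESeq2 1.42.0 Wald test, TPM with a pseudocount of 1 in limma, each input alone, a replicate block and each library left out.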

Additional observations from a re-analysis of the deposited data

How the results depend on the processing

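For sorted cells against bulk liver, 23 to 26 members passed in every alternative, against 25 as reported. Calls over all genes moved with library totals (10738 higher, 3654 lower) and with limma on log2(TPM + 1) (11373 higher, 2895 lower). Signs turned for Clec1a with library totals (0.63) and for Clec16a with 2500 cells alone (-0.0197) and 5000 cells alone (-0.0156) against bulk. Leaving out each library gave 16 to 17 members higher and 7 to 9 lower, and 6245 to 6934 genes higher and 5692 to 6305 lower.

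Across inputs, no filter on low counts gave 1 member called for any difference and 1 for 2500 against 20000 cells, both Clec2i, and other alternatives gave 0. Genes called for the slope were 12 as reported, 19 with no filter, 4 with limma-voom, 127 with DESeq2, and 0 to 10 with a library left out. For any difference they were 44, then 605, 28 with limma-voom, and 20 to 104 with a library left out. For 2500 against 20000 cells they were 62, then 397, 37 with limma-voom, 267 with DESeq2, and 19 to 67 with a library left out. The cause was not tested.

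With the replicate block, 25 members passed against bulk, 25 of them the reported calls, 0 passed across inputs, and the slope called 0 genes. Libraries of equal number correlated at -0.09 to 0.12 in their deviations from group means (18 pairs, 1 above 0.1) and those of unequal number at -0.13 to 0.15, so the numbers were not used as pairs. In 4 of 12 libraries the best match had the same number. Depth limits the members with under about 1 CPM, and with 2 bulk libraries the bulk spread is poorly known. Overlapping genes limit 6 members: Clec2i, Clec2g, Clec16a, Clec4b2, Clec4a2 and Colec12. For Clec4a2 and Colec12 an overlapping processed pseudogene lies on the same strand. Reads shared within the Clec4a, Cd209 and Clec2 groups were not measured.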
